A study of Mus musculus with 6 samples.

Results

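Bile acids are made from cholesterol in the hepatocyte, exported into bile and returned to the liver from the intestine. A classic pathway that begins with Cyp7a1 and an alternative pathway that begins with Cyp27a1 both lead to primary bile acids. The nuclear receptor FXR senses bile acids and, through its target SHP, lowers transcription of Cyp7a1 and Cyp8b1. The 10 genes described here cover these steps in order: synthesis (Cyp7a1, Cyp8b1, Cyp27a1 and Cyp7b1), conjugation (Baat), transport (Slc10a1, Abcb11 and Abcb4) and sensing (Nr1h4, which encodes FXR, and Nr0b2, which encodes SHP). They were found on the array by the RefSeq accession of their probes, and the 10 genes are among 37074 genes on the array and among 22338 genes that were tested.

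Liver RNA of male L1-Tg mice was compared with that of male WT littermates. L1-Tg mice were hemizygous for B6;D2-Tg(APOE-NPC1L1)20Lqyu/J, a single transgenic line in which the APOE promoter drives human NPC1L1, a transporter that takes cholesterol back from bile, in hepatocytes. The line had been backcrossed for at least 8 generations to C57BL/6J. Both groups received a control-fat diet (CFD) with no drug, and the mice of the study were 6 to 12 weeks old. Each of the 3 arrays per group held RNA pooled from 2 or 3 mice, so the SD below is a spread between pools. The comparison addresses how L1-Tg and WT livers differ before any high-fat diet.

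All 6 arrays shared 1 slide and 1 scan, WT in row 1 and L1-Tg in row 2, so slide row and genotype cannot be told apart. In both groups replicates 1, 2 and 3 lay in columns 1, 2 and 3, so replicate number and slide column cannot be told apart. Between 53.1% and 59.2% of probe spots per array were well above background and 0 were saturated. WT replicate 1 had the lowest share, and also the most spots marked non-uniform (22). Values are log2 processed signals minus the 75th percentile of the array, which lay between intensities of 297 and 378. Levels of different genes are not compared, because probes differ in brightness. All 9 hepatocyte markers found on the array were well above background on all 6 arrays, with a summed level (in multiples of the 75th percentile) of 7838 to 9662 in L1-Tg and 8409 to 9669 in WT pools. Kupffer cell markers summed to 148 to 173 in L1-Tg and 93.2 to 172 in WT pools, with the lowest value in WT replicate 1, and all 7 were well above background on all arrays. Cholangiocyte markers summed to 2.19 to 2.84 in L1-Tg and 2.26 to 2.84 in WT pools, with 7 of 10 well above background on all arrays. In limma 0 of 8 tested had an unadjusted p under 0.05, where all genes tested gave 4.54% as higher and 4.31% as lower. Pancreas markers summed to 2.59, 36.2 and 3.32 in L1-Tg replicates 1, 2 and 3 and to 2.23 to 2.46 in WT pools, so L1-Tg replicate 2 stood apart in the sum. For Cela2a, 1 of these markers, all L1-Tg pools lay above all WT pools, and L1-Tg replicate 3 read 0.25. In bulk liver, fewer cells of a type and less RNA per cell cannot be told apart.

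Promoter sequence was available for 7 of the 10 genes in RefSeq (GRCm38.p6), in windows around the start of the gene. Stretches of 3 promoters are shown because each holds letters known as the contact of a factor in this circuit, and they run from 90 to 11 bases before the start of the gene, read along the gene. Capitals in Abcb11 mark a match, with up to 1 mismatch, to AGGTCANTGACCT, the inverted repeat to which FXR and its partner bind. Capitals in Nr0b2 mark TCAAGG, the core bound by LRH-1 (Nr5a2), and capitals in Cyp8b1 mark CAAAGTCCA, a sequence of the type bound by HNF4-alpha.
Abcb11, chr2:69342627-69342706, minus strand: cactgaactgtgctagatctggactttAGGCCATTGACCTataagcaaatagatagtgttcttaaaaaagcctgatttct
Nr0b2, chr4:133553286-133553365, plus strand: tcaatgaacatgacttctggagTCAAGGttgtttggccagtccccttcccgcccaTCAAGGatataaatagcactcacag
Cyp8b1, chr9:121916316-121916395, minus strand: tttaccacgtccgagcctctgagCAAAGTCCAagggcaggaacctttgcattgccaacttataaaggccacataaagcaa

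The inverted repeat lay 63 to 51 bases before the start in Abcb11 and, with both strands searched, was found in 0.0822% of 32851 promoters of the same length and in 1 of the 7. TCAAGG lay 68 to 63 and 35 to 30 bases before the start in Nr0b2, and was found in 14.4% of promoters and in 1 of the 7. CAAAGTCCA lay 67 to 59 bases before the start in Cyp8b1, and was found in 0.475% of promoters and in 1 of the 7. The single hexamer AGGTCA, which also occurs within the inverted repeat, was found in 16.3% of promoters and in Abcb11, Nr1h4 and Slc10a1. These matches describe letters in these windows and not binding.

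None of the 10 genes passed the limma test at an adjusted p of 0.05, a threshold passed by 29 of 22338 genes, or 0.13%. None of the 10 had an unadjusted p under 0.05, where the share of all genes tested was 4.54% for higher and 4.31% for lower signals in L1-Tg. The log2 difference was below 0 for 8 genes and above 0 for 2 (for 7 and 3 with quantile normalization, the array median, no scaling, the deposited values or the hepatocyte markers as scale), and their median was -0.15, while over all genes tested 56.9% were lower and the median was -0.03. The largest differences in size were those of Cyp8b1, Cyp7a1 and Cyp7b1, and these also had wide intervals. Without L1-Tg replicate 2, the pool with the highest sum of pancreas markers, 9 of the 10 were below 0. In limma 0 of the 10 then had an unadjusted p under 0.05. Without WT replicate 1, the pool with the low Kupffer markers, 9 were below 0, and 2 (Cyp7a1 and Cyp8b1) had such a p. In these fits, 1754 of 22337 and 1857 of 22330 genes tested had an unadjusted p under 0.05. All 10 genes were well above background on all 6 arrays, so no gene was lost to the filter on dim probes. With 3 pools in each group, the smallest p that exact permutation allows is 0.10.

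**Figure D1:**
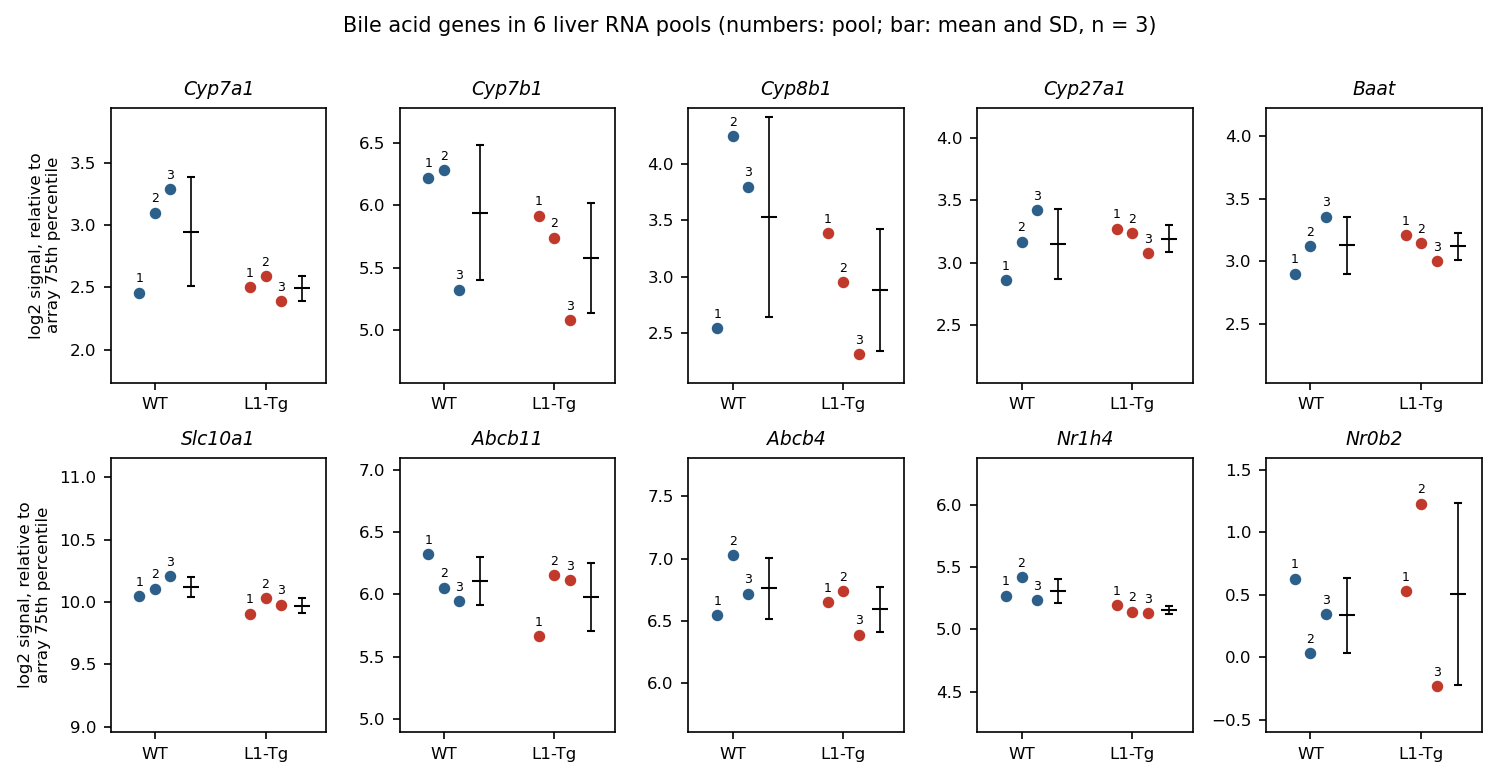
Log2 signal of each bile acid gene (y axis, relative to the 75th percentile of the array) in the 3 WT pools (blue) and the 3 L1-Tg pools (red), with the replicate number above each point and the mean and SD beside them. WT replicate 1 lay with the L1-Tg pools for Cyp7a1 and Cyp8b1.

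Cyp7a1 is the rate-limiting enzyme of the classic pathway. Its log2 signal was 2.50, 2.59 and 2.39 in L1-Tg replicates 1, 2 and 3 and 2.46, 3.10 and 3.28 in WT replicates 1, 2 and 3. WT replicates 2 and 3 lay above all L1-Tg pools, and WT replicate 1 lay among them, so the groups overlapped. The mean was 2.49 ± 0.10 (SD, n = 3 pools) in L1-Tg and 2.95 ± 0.43 (SD, n = 3 pools) in WT. The log2 difference was -0.45 (95% interval -0.98 to 0.08, limma unadjusted p = 0.0813, adjusted p = 0.589), or 0.731 times the WT level. Without WT replicate 1 the difference was -0.70 (limma unadjusted p = 0.00160, adjusted p = 0.336). In that fit 1857 of 22330 genes tested had an unadjusted p under 0.05. That the pools then no longer overlapped follows from the values above. Those of Cyp8b1, Slc10a1 and Nr1h4 did not overlap in that setting either, and the share over all genes was not computed. Without WT replicate 3 the difference of Cyp7a1 was -0.28.

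Cyp8b1 directs the products of the classic pathway toward cholic acid. Its log2 signal was 3.39, 2.95 and 2.31 in L1-Tg replicates 1, 2 and 3 and 2.54, 4.25 and 3.80 in WT replicates 1, 2 and 3. As with Cyp7a1, the highest values were those of WT replicates 2 and 3 and the lowest that of L1-Tg replicate 3, with WT replicate 1 next to it. The mean was 2.88 ± 0.54 (SD, n = 3 pools) in L1-Tg and 3.53 ± 0.89 (SD, n = 3 pools) in WT. The log2 difference was -0.65 (95% interval -1.81 to 0.52, limma adjusted p = 0.677), the largest in size of the 10 and smaller than the spread between WT pools. Without WT replicate 1 it was -1.14 (limma unadjusted p = 0.0194, adjusted p = 0.582), and without WT replicate 2 it was -0.29. Cyp8b1 also varied most between pools of 1 genotype, with an SD of 0.73 pooled over both groups against a median of 0.17 over all genes tested, and 2.80% of genes had a larger one.

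Cyp27a1 oxidizes the sterol side chain in mitochondria and opens the alternative pathway. Across pools the log2 signal was 3.27, 3.24 and 3.07 in L1-Tg replicates 1, 2 and 3 and 2.86, 3.17 and 3.42 in WT replicates 1, 2 and 3. The L1-Tg pools lay inside the range of the WT pools, and the log2 difference was 0.04 (95% interval -0.34 to 0.43, limma adjusted p = 0.938). The probe was printed at 10 spots per array, which gives the technical error within an array. The SD between spots was between 0.02 and 0.06 per array (0.05 pooled), against 0.28 between WT pools and 0.10 between L1-Tg pools. The spread between WT pools was therefore 5.89 times the spread between spots.

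Cyp7b1 acts on the oxysterols of the alternative pathway and is more abundant in male than in female mouse liver. Its log2 signal was 5.92, 5.74 and 5.08 in L1-Tg replicates 1, 2 and 3 and 6.22, 6.28 and 5.32 in WT replicates 1, 2 and 3. Replicate 3 was the lowest pool of both genotypes, and the groups overlapped. This gave a log2 difference of -0.36 (95% interval -1.16 to 0.43, limma adjusted p = 0.725). Without WT replicate 3 it was -0.67 (limma unadjusted p = 0.0463, adjusted p = 0.396), and without L1-Tg replicate 3 it was -0.11. In the limma fit without WT replicate 3, 2760 of 22327 genes tested had an unadjusted p under 0.05. With the replicate number as a block the limma unadjusted p was 0.0336 and the adjusted p was 0.590. In that fit 1851 of 22338 genes tested had an unadjusted p under 0.05. The replicate number is also the slide column of the array, and nothing in the labels says that it marks a shared animal or day. The order of pools thus differed from that of Cyp7a1 and Cyp8b1, in which WT replicate 1 and not WT replicate 3 was the lowest WT pool.

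Baat joins bile acids to taurine or glycine before export. Across pools the log2 signal was 3.21, 3.15 and 3.0 in L1-Tg replicates 1, 2 and 3 and 2.90, 3.12 and 3.35 in WT replicates 1, 2 and 3. The pools stood in the same order as for Cyp27a1, from WT replicate 3 at the top to WT replicate 1 at the bottom. This gave a log2 difference of -0.01 (95% interval -0.35 to 0.33, limma adjusted p = 0.991), and its sign turned with quantile normalization, the array median, no scaling, the deposited values and the hepatocyte markers as scale.

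**Figure D2:**
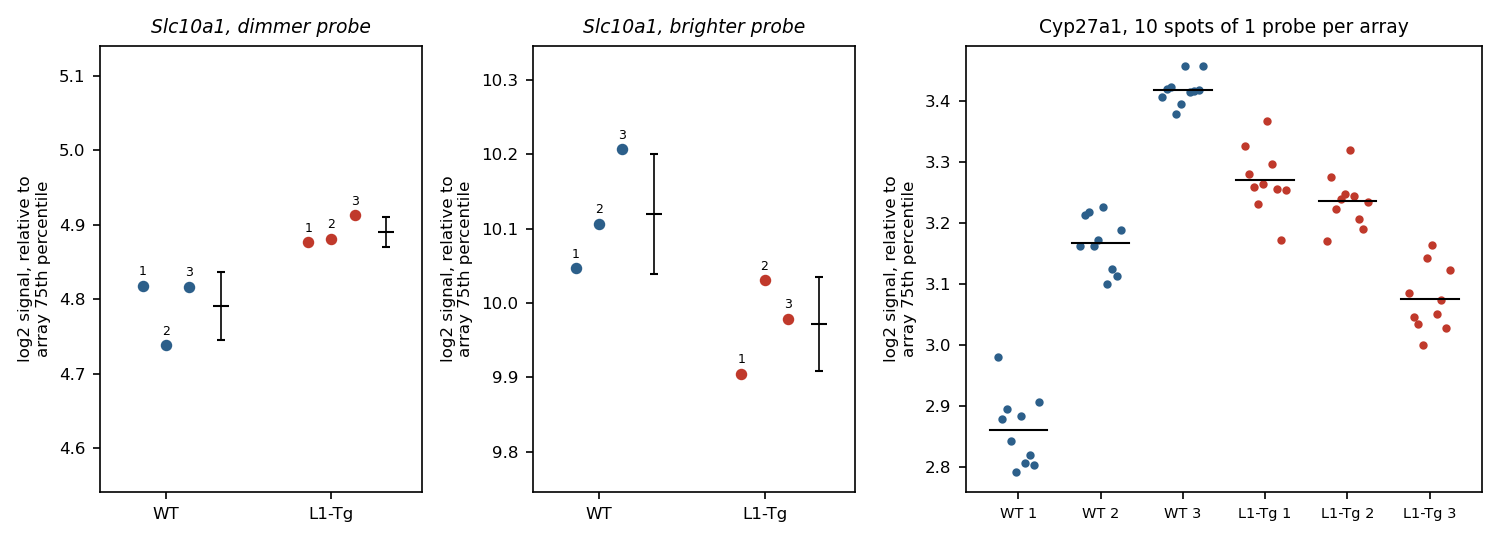
Log2 signal (y axis, relative to the 75th percentile of the array) of the dimmer and the brighter probe of Slc10a1 in each pool with the mean and SD, and of the 10 spots of the Cyp27a1 probe on each array with their mean as a line. The L1-Tg pools (red) lay above the WT pools (blue) for the dimmer Slc10a1 probe and below them for the brighter one, and the spots of Cyp27a1 on 1 array lay closer together than the WT pools did.

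Slc10a1 encodes NTCP, the sodium-dependent carrier that takes conjugated bile acids from blood into the hepatocyte. It was the only gene of the 10 with 2 probes, both assigned to the same RefSeq transcript. The brighter probe, which represents the gene, read 9.91, 10.03 and 9.98 in L1-Tg replicates 1, 2 and 3 and 10.05, 10.11 and 10.21 in WT replicates 1, 2 and 3. All L1-Tg pools lay below all WT pools, and the log2 difference was -0.15 (95% interval -0.37 to 0.07, limma adjusted p = 0.643). The dimmer probe read 4.88, 4.88 and 4.91 in L1-Tg replicates 1, 2 and 3 and 4.82, 4.74 and 4.82 in WT replicates 1, 2 and 3. Here all L1-Tg pools lay above all WT pools, with a log2 difference of 0.10 (95% interval -0.11 to 0.31, limma adjusted p = 0.725 over 29418 probes). The probes of Slc10a1 therefore gave opposite signs, and neither passed the test.

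Abcb11 encodes BSEP, the canalicular pump that exports bile acids and a known FXR target. Its probe read 5.67, 6.15 and 6.12 in L1-Tg replicates 1, 2 and 3 and 6.32, 6.05 and 5.95 in WT replicates 1, 2 and 3. L1-Tg replicate 1 was the lowest pool and the other pools were interleaved. This gave a log2 difference of -0.13 (95% interval -0.55 to 0.29, limma adjusted p = 0.812), and it was 0.03 without L1-Tg replicate 1. Abcb4 encodes MDR2, which moves phosphatidylcholine into bile. Its probe read 6.65, 6.74 and 6.39 in L1-Tg replicates 1, 2 and 3 and 6.55, 7.02 and 6.72 in WT replicates 1, 2 and 3. WT replicate 2 was the highest and L1-Tg replicate 3 the lowest pool, and the log2 difference was -0.17 (95% interval -0.55 to 0.22, limma adjusted p = 0.735). It was -0.28 without WT replicate 1, -0.038 without WT replicate 2 and -0.067 without L1-Tg replicate 3.

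Nr1h4, the gene of the bile acid receptor FXR, varied little between pools, with a pooled SD of 0.07. Its log2 signal was 5.19, 5.14 and 5.13 in L1-Tg replicates 1, 2 and 3 and 5.27, 5.42 and 5.23 in WT replicates 1, 2 and 3. All L1-Tg pools lay below all WT pools, and the log2 difference was -0.15 (95% interval -0.37 to 0.07, limma adjusted p = 0.643). Slc10a1 and Nr1h4 were the 2 of 10 genes whose pools did not overlap, both lower in L1-Tg, where 8.63% of all genes tested were lower and 7.27% were higher without overlap. The separation depended on the scale of the arrays: it was seen for 0 of the 10 genes with quantile normalization, the array median, no scaling, the deposited values or the hepatocyte markers as scale, and for Slc10a1 alone after the normexp background correction.

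Nr0b2 encodes SHP, a repressor that FXR induces and that acts on the promoters of Cyp7a1 and Cyp8b1. On the log2 scale it read 0.53, 1.23 and -0.23 in L1-Tg replicates 1, 2 and 3 and 0.63, 0.03 and 0.34 in WT replicates 1, 2 and 3. The highest and the lowest pool were both L1-Tg, and the log2 difference was 0.17 (95% interval -0.72 to 1.07, limma adjusted p = 0.888). Without L1-Tg replicate 2 it was -0.19, and without L1-Tg replicate 3 it was 0.54. L1-Tg replicate 3 held the lowest value of Nr0b2 and also of Cyp7a1 and Cyp8b1.

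**Figure D3:**
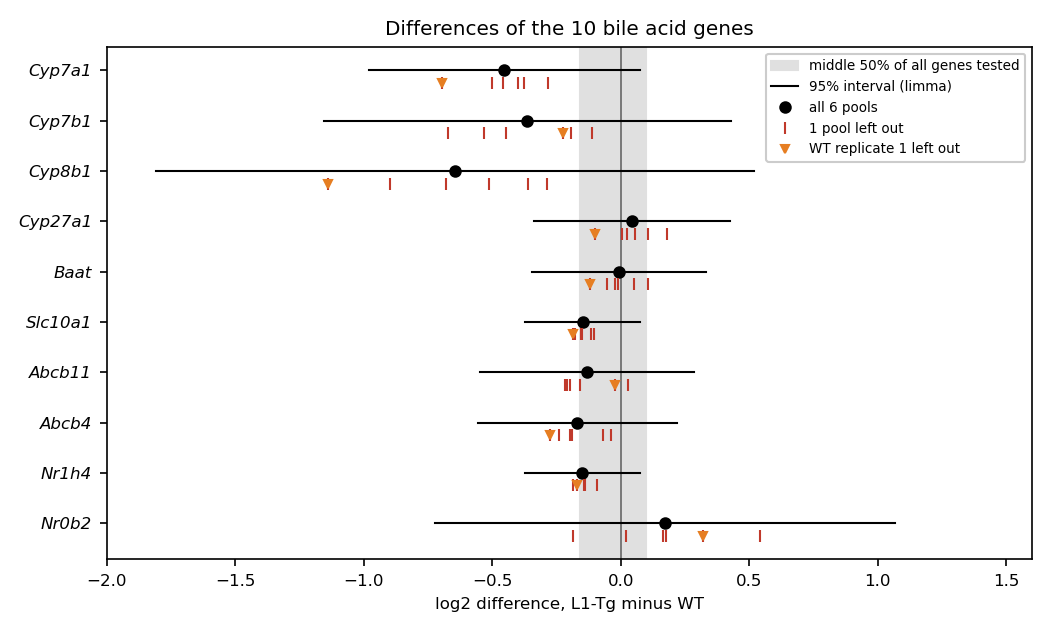
Log2 difference of each bile acid gene (x axis, L1-Tg minus WT, n = 3 pools each) as a point with its 95% interval from limma, and below it the difference with each pool left out (ticks) and with WT replicate 1 left out (triangle). All 10 intervals contain 0, and leaving out WT replicate 1 moved Cyp7a1 to -0.70 and Cyp8b1 to -1.14.

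Seen by pool, L1-Tg replicate 3 was the lowest of the 6 for 6 of the 10 genes, and WT replicates 2 and 3 were the highest for 4 genes each. Relative to the WT mean of each gene, the median log2 value over the 10 genes came to -0.11, -0.06 and -0.27 for L1-Tg replicates 1, 2 and 3 and to -0.14, 0.07 and 0.05 for WT replicates 1, 2 and 3. WT replicate 1 thus lay among the L1-Tg pools in this median. Cyp8b1, Nr0b2, Cyp7b1 and Cyp7a1 had the largest pooled SDs of the 10, of 0.73, 0.56, 0.49 and 0.31. Those of Abcb11, Abcb4, Cyp27a1 and Baat were 0.24, 0.21, 0.21 and 0.18, nearer to the median of 0.17 over all genes tested. Slc10a1 and Nr1h4 had 0.07 each, with a larger one in 91.7% and 91.2% of genes tested. The intervals on Slc10a1 and Nr1h4 accordingly reach no lower than -0.37, while that on Cyp8b1 reaches -1.81.

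The difference index of the study's methods divides the difference between group means of the linear signal by the sum of the group SDs, and a modulus above 0.7 passes. It was -1.11 for Nr1h4, -1.03 for Slc10a1 and -0.89 for Cyp7a1, so 3 of 10 genes passed as lower, against 14.7% of all genes tested, and 0 passed as higher, against 11.8%. For Cyp8b1 it was -0.55. Without scaling between arrays it was -0.37 for Slc10a1, -0.32 for Nr1h4 and -0.68 for Cyp7a1, below the threshold in size. With the deposited values it was -0.76 for Cyp7a1, -0.64 for Slc10a1 and -0.62 for Nr1h4, so Cyp7a1 alone of the 10 passed. The shares of 14.7% and 11.8% were computed on the scale of the first index values given here. The share of all genes passing was not computed without scaling or with the deposited values. The counts under these settings therefore cannot be set against all genes tested.

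Of 18 other genes of bile acid synthesis, 17 were tested, and Ch25h was well above background on 0 arrays. None passed the adjusted threshold. At an unadjusted p under 0.05, 3 were higher and 0 were lower, where all genes tested gave 4.54% and 4.31%, and the median log2 difference was -0.02. Pools did not overlap for 2 genes as higher and 1 as lower, against 7.27% and 8.63% of all genes tested. Cyp39a1, which hydroxylates an oxysterol made mainly in brain, read 2.99, 3.65 and 3.66 in L1-Tg replicates 1, 2 and 3 and 2.77, 2.39 and 3.17 in WT replicates 1, 2 and 3. Its pools overlapped, and the log2 difference was 0.66 (limma unadjusted p = 0.0441, adjusted p = 0.554). Akr1d1, the reductase of the steroid nucleus, read 0.66, 0.60 and 0.87 in L1-Tg replicates 1, 2 and 3 and 0.57, 0.16 and 0.37 in WT replicates 1, 2 and 3. Its pools did not overlap, and the log2 difference was 0.34 (limma unadjusted p = 0.0468, adjusted p = 0.556). Cyp2a12, a bile acid hydroxylase of mouse liver, read 7.56, 7.56 and 7.65 in L1-Tg replicates 1, 2 and 3 and 7.43, 7.35 and 7.23 in WT replicates 1, 2 and 3. Its pools did not overlap, and the log2 difference was 0.26 (limma unadjusted p = 0.0325, adjusted p = 0.537).

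Of 19 other genes for transport of bile acids and bile lipids, 18 were tested. Slc51a, which encodes OST-alpha, was well above background on 0 arrays. Of these, 11 were above and 7 below the WT mean, where 56.9% of all genes tested were below it. The median log2 difference was 0.11. Pools did not overlap for 2 genes as higher and 1 as lower, against 7.27% and 8.63% of all genes tested. In limma 1 gene reached an unadjusted p under 0.05, as higher, where all genes tested gave 4.54% as higher and 4.31% as lower. That gene was Slc51b, which encodes the OST-beta subunit of the basolateral bile acid exporter and is a known FXR target. On the log2 scale it read -2.49, -2.24 and -2.07 in L1-Tg replicates 1, 2 and 3 and -2.61, -3.47 and -3.29 in WT replicates 1, 2 and 3. All L1-Tg pools lay above all WT pools, by a small margin from WT replicate 1, and the probe was dim but well above background on all arrays. The log2 difference was 0.85 (standard error 0.24, limma unadjusted p = 0.0117, adjusted p = 0.464), and it was 0.40 after the normexp background correction.

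Of 18 other genes for sensing and regulation, 16 were tested, and Vdr and Fgf15 were left out by the filter on dim probes. Of these, 4 were above and 12 below the WT mean, where 56.9% of all genes tested were below it. The median log2 difference was -0.09, and in limma 0 reached an unadjusted p under 0.05. The smallest p belonged to Ppargc1a, a coactivator of the fasting response, and Fgfr4, the receptor through which intestinal FGF15 signals to the hepatocyte. Ppargc1a read 0.74, 1.01 and 0.50 in L1-Tg replicates 1, 2 and 3 and 1.24, 0.99 and 2.14 in WT replicates 1, 2 and 3, with a log2 difference of -0.71 (limma adjusted p = 0.566), which was -0.37 without WT replicate 3. Fgfr4 read 2.47, 2.76 and 2.50 in L1-Tg replicates 1, 2 and 3 and 3.03, 2.67 and 2.98 in WT replicates 1, 2 and 3, with a log2 difference of -0.31 (limma adjusted p = 0.577). The groups overlapped for both. Over the 3 lists the unadjusted p was under 0.05 for 4 of 51 genes as higher and 0 as lower, where all genes tested gave 4.54% and 4.31%. With no scaling it was so for 2 as higher, where 1231 of 22338 genes tested had such a p in either direction. With the array median as scale the median of all genes moved by 0.11, from -0.03 to 0.08, and the median of the sensing genes moved from -0.09 to 0.02.

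**Figure D4:**
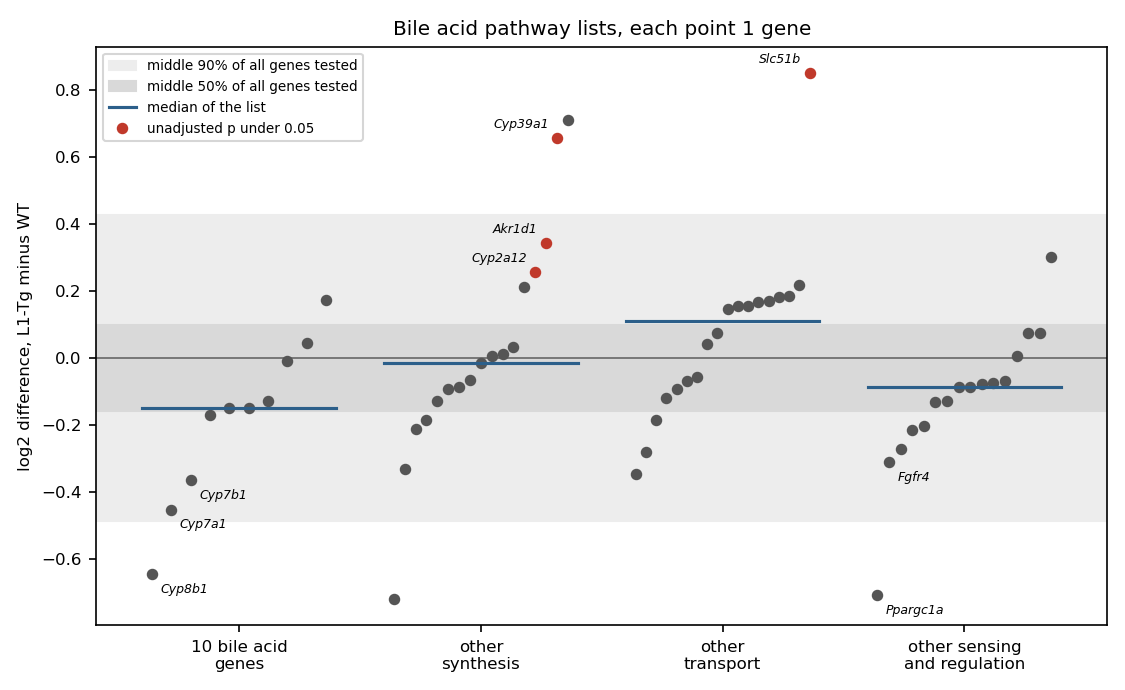
Log2 difference (y axis, L1-Tg minus WT) of every tested gene in the 4 lists of the bile acid pathway (x axis), with the median of each list as a line and grey bands for the middle 50% and 90% of all genes tested. Red points have an unadjusted p under 0.05, and 0 of the 10 bile acid genes are among them.

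Expression of Cyp7a1 follows the time of day, so a list of circadian clock genes was read beside it. Of 16 clock genes tested, 5 had an unadjusted p under 0.05, all lower in L1-Tg and all without overlap of the pools, and 0 passed the adjusted threshold. Over all genes tested these shares were 4.31% and 8.63%. With the array median, no scaling or the hepatocyte markers as scale, 2 of the 5 (Per1 and Ciart) had an unadjusted p under 0.05. In these fits 1887, 1231 and 1700 of 22338 genes tested did, in either direction. With the replicate number as a block, without L1-Tg replicate 1 and without WT replicate 1, 3 of the 5 did (Per1, Ciart and Cry2). Of all genes tested, 1851 of 22338, 1481 of 22333 and 1857 of 22330 did in these 3 fits. Per1, part of the negative arm of the clock, read 2.76, 2.62 and 2.93 in L1-Tg replicates 1, 2 and 3 and 3.35, 3.31 and 3.6 in WT replicates 1, 2 and 3. Its log2 difference was -0.65 (limma unadjusted p = 0.00203, adjusted p = 0.294). The differences of Ciart (-0.65), Cry2 (-0.31), Hlf (-0.30) and Tef (-0.29) had limma adjusted p between 0.409 and 0.561. Dbp, an activator of Cyp7a1 named here after its values were seen, read 5.99, 5.78 and 6.26 in L1-Tg replicates 1, 2 and 3 and 6.40, 6.20 and 5.78 in WT replicates 1, 2 and 3, with a log2 difference of -0.12 (limma adjusted p = 0.857). WT replicate 1, with the lowest Cyp7a1 of the WT pools, held the highest Dbp. The part of sampling time in the values of Cyp7a1 was not tested.

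Cyp7b1 belongs to the male-predominant genes of mouse liver. Of 9 tested, 0 had an unadjusted p under 0.05 in limma, where all genes tested gave 4.54% as higher and 4.31% as lower. The median log2 difference of the 9 was -0.09. Cyp2d9, another of the 9, differed by -0.23 (limma adjusted p = 0.744). WT replicate 3, the lowest WT pool for Cyp7b1, was the lowest of all 6 pools for Hsd3b5, Slco1a1, C8b, Cyp4a12a and Cyp4a12b. For Mup20 it was the lowest WT pool, and for Cyp2d9 and Elovl3 it was not. The SD of Hsd3b5 was 2.23 between WT pools and 0.12 between L1-Tg pools. Of the female-predominant genes, 3 were well above background on all 6 arrays, and 1 of these, Cyp2a4, had an unadjusted p under 0.05. Cyp2a4, a steroid hydroxylase with a near-identical copy that the probe may also read, was 9.07, 8.91 and 9.04 in L1-Tg replicates 1, 2 and 3 and 8.12, 7.96 and 8.48 in WT replicates 1, 2 and 3. Its log2 difference was 0.82 (limma unadjusted p = 0.00143, adjusted p = 0.267). Cyp2b9 and Cyp2b13, which are close paralogs, differed by 2.57 and 2.83 (limma unadjusted p = 0.0256 and 0.0130, adjusted p = 0.520 and 0.473), and by 1.39 and 1.35 after the normexp background correction. They were well above background in 3 of 3 L1-Tg and 2 of 3 WT pools, so they passed the filter on dim probes only through the group in which they read higher. Apoa1 was the hepatocyte marker with an unadjusted p under 0.05, at -0.49 (limma adjusted p = 0.532), and the median of the 9 hepatocyte markers was -0.09. The part of these genes in the values of Cyp7b1 was not tested.

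**Figure D5:**
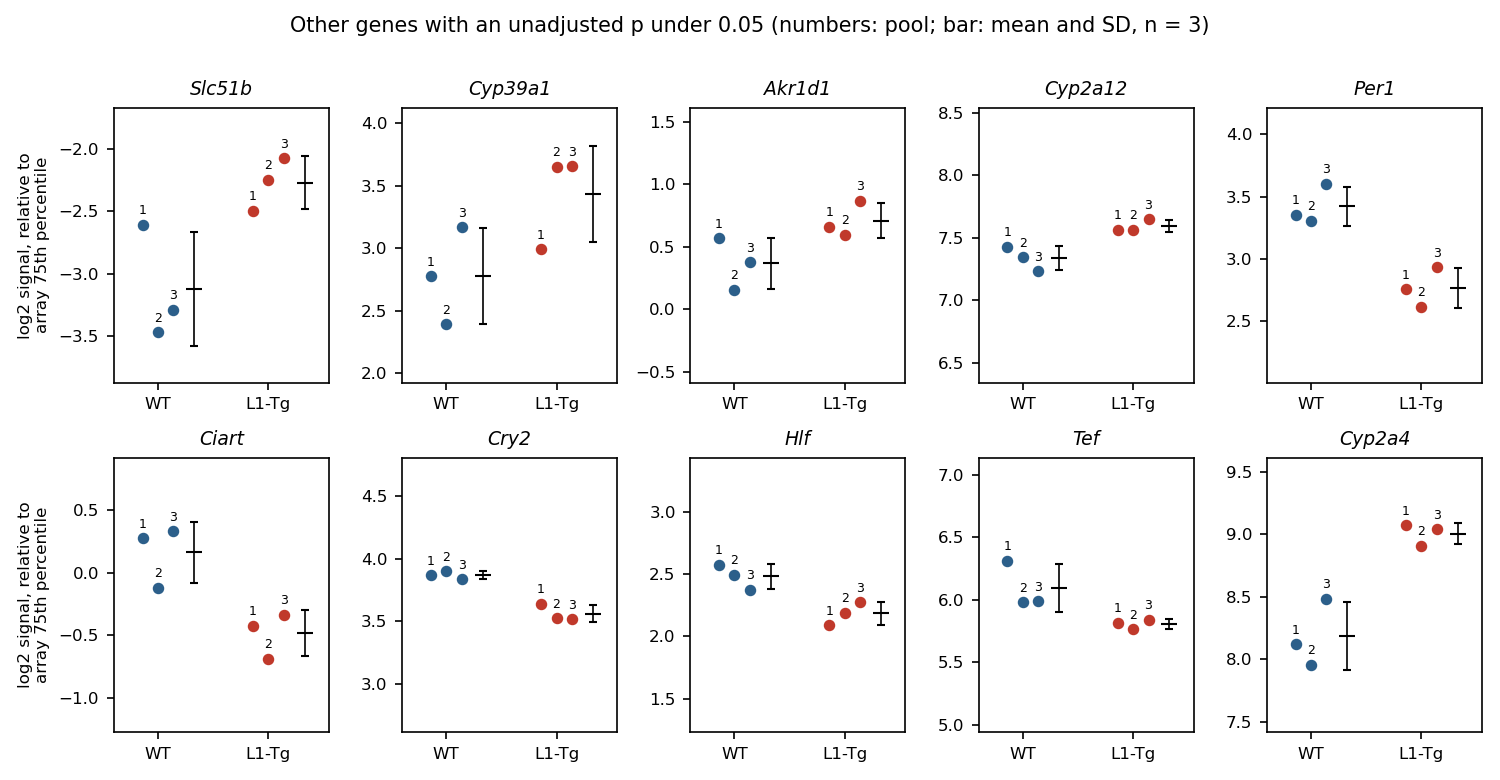
Log2 signal (y axis, relative to the 75th percentile of the array) of 10 other genes with an unadjusted p under 0.05 in the 3 WT pools (blue) and the 3 L1-Tg pools (red), with the replicate number above each point and the mean and SD beside them. Slc51b, Akr1d1, Cyp2a12 and Cyp2a4 were higher and the 5 clock genes were lower in all L1-Tg pools than in all WT pools, and Cyp39a1 overlapped.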

How the data were processed

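The authors hybridized Cy3-labeled cRNA of pooled liver RNA to 1-color Agilent arrays and processed the scans with Agilent Feature Extraction 10.10.1.1. The deposited processed signals are intensities on a linear scale, background-subtracted and not scaled between arrays. The authors also deposited median spot and local background intensities, marks of 0 or 1 for other properties of a spot, and a table of intensities, in which each array's processed signals are multiplied by a constant (2.46 to 2.98) whose basis is not given in the sources used here.

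Groups follow the genotype in the labels, with 6 arrays in all. Controls were removed, non-uniform spots (1 to 22 per array) were treated as missing, spots of a probe were averaged, and log2 signals were centered on the 75th percentile of each array. A gene was represented by its brightest probe. Genes with at least 2 values per group, and above background on every array of 1 or both groups, were tested two-sided in limma 3.58.1 (R 4.3.3, moderated variances) with Benjamini-Hochberg adjustment over 22338 genes and a threshold of 0.05, using the packages data.table (version 1.17.8) and jsonlite (version 2.0.0). Promoters were searched with Python 3.11.15, and figures were drawn with matplotlib 3.10.9. On simulated data of 22338 genes with the spread of these arrays, 6% of genes changed by 0.5, 54% by 1, 74% by 2 and 100% by 4 (log2) were called, with 8 false calls, so the number of arrays limits what can be seen. The replicate number is also the slide column, and the labels do not say that it pairs animals. Correlations of same-numbered deviations were -0.16, 0.11 and 0.02, which with 3 pools per group cannot decide whether the numbers pair pools. p-values measure only the spread between pools.

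The members and lists were chosen with earlier results of these data known. Named were the 10 genes, up to 5 genes per list with an unadjusted p under 0.05, and otherwise the 2 with the smallest p; of the marker lists the rule also named the 2 brightest genes, which are given only within their list. Marker lists covered hepatocytes, cholangiocytes, Kupffer, stellate and endothelial cells, intestine and pancreas. Alternatives were quantile normalization, the array median, no scaling, normexp (offset 50), the deposited table, 2 other filters on dim probes, the mean of a gene's probes, the methods' t-test, each array left out and the replicate number as a block. The hepatocyte markers as scale, the other Slc10a1 probe and the overlap of pools under other scales were chosen after seeing the data.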

Additional observations from a re-analysis of the deposited data

How the results depend on the processing

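The log2 differences of Cyp7a1, Cyp7b1, Cyp8b1, Abcb4 and Nr1h4 kept their sign under all alternatives run, and 0 of the 10 genes passed the adjusted threshold under any, but sizes moved. Nr1h4 was -0.041 with the array median, -0.032 with the hepatocyte markers and -0.094 without WT replicate 2, Abcb4 was -0.06 and -0.05 with these scales, and Slc10a1 was -0.04 and -0.03 with them and -0.024 with the mean of its probes. Cyp8b1 was -0.36 without L1-Tg replicate 3, and Cyp7b1 was -0.22 and -0.19 without WT replicates 1 and 2. The sign of Baat turned with quantile normalization (0.0076), the array median (0.10), no scaling (0.047), the deposited table (0.041) and the hepatocyte markers as scale (0.11), and that of Slc10a1 at its other probe (0.10). With each array left out in turn, Cyp27a1 ranged from -0.10 to 0.18, Baat from -0.12 to 0.11, Abcb11 from -0.22 to 0.026 and Nr0b2 from -0.19 to 0.54. The number of genes called over the array was 10 without a filter on dim probes, 0 in the methods' t-test without moderated variances (1837 at an unadjusted p under 0.05) and 11 with the replicate number as a block. Leaving out 1 array gave 9, 15 and 14 called genes for L1-Tg replicates 1 to 3, and for WT replicates 1 to 3 it gave 17, 9 and 16.

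Of the 10 genes, 1 (Cyp7b1) had an unadjusted p under 0.05 with the replicate block, and 0 to 2 did with 1 array left out (Cyp7a1 and Cyp8b1 without WT replicate 1, Cyp7b1 without WT replicate 3). Over all genes tested, 1851 of 22338 did with the block. Without WT replicate 1 it was 1857 of 22330, and without WT replicate 3 it was 2760 of 22327. The count of 10 genes whose pools did not overlap was 1 after normexp and 0 with quantile normalization, the array median, no scaling, the deposited table and the hepatocyte markers. Of the other pathway genes, those higher with an unadjusted p under 0.05 numbered 2 with no scaling, 1 without the filter, 2 in the methods' t-test, 2 with the replicate block and 1 to 5 with 1 array left out. Those lower numbered 3 after normexp, 1 without the filter, 1 with the mean of a gene's probes, 2 in the methods' t-test and 0 to 5 with 1 array left out. Over all genes tested, in either direction, 1231 of 22338 had such a p with no scaling and 2487 of 37069 without the filter. It was 1837 of 22338 in the methods' t-test, 2128 of 22327 after normexp and 2017 of 22354 with the mean of a gene's probes. With 1 array left out it was 1110 to 2760 genes.

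The median of the 10 genes, -0.15 as reported, was -0.040 with the array median, -0.064 with quantile normalization, -0.095 with no scaling, -0.10 with the deposited table, -0.031 with the hepatocyte markers as scale and -0.20 to -0.12 with 1 array left out. The median of the synthesis list was 0.093 with the array median, 0.10 with the hepatocyte markers and -0.11 to 0.058 with 1 array left out. That of the transport list was 0.17 with quantile normalization, 0.22 with the array median, 0.16 with no scaling, 0.23 with the hepatocyte markers and 0.028 to 0.14 with 1 array left out. That of the sensing list was 0.022 with the array median, 0.032 with the hepatocyte markers and -0.15 to -0.053 with 1 array left out.

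The difference index was -0.68 for Cyp7a1, -0.37 for Slc10a1, -0.32 for Nr1h4 and 0.078 for Baat with no scaling, and with the deposited table -0.76 for Cyp7a1, -0.64 for Slc10a1, -0.62 for Nr1h4 and 0.066 for Baat. With 1 array left out it ranged from -2.87 to -0.54 for Cyp7a1, -1.69 to -0.21 for Cyp7b1, -1.38 to -0.25 for Cyp8b1, -0.36 to 0.56 for Cyp27a1, -0.45 to 0.40 for Baat, -0.45 to 0.077 for Abcb11 and -0.20 to 0.68 for Nr0b2. Where a value moved, the cause was not tested. Slc51b, Cyp2b9 and Cyp2b13 are dim, and dim signal limits their fold changes.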

Other observations

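Among cell markers outside the hepatocyte lineage, all 7 Kupffer cell genes tested had a higher mean in L1-Tg, where 9620 of 22338 genes tested did. Their median log2 difference was 0.30 (0.086 without WT replicate 1, with 5 of 7 higher). The pools of the 2 groups overlapped for all 7, and 0 of them had an unadjusted p under 0.05 in limma. Over all genes tested 4.54% had such a p as higher and 4.31% as lower, also the shares for the lists that follow. The stellate cell list held 1 of 8 genes with an unadjusted p under 0.05, Reln at -0.42 (limma adjusted p = 0.395), and its summed level was 49.2 to 66.2 in L1-Tg and 53.8 to 66.6 in WT pools. The endothelial list held 0 of 6, with summed levels of 98.3 to 100.1 in L1-Tg and 93.3 to 101 in WT pools. Of the intestine list 3 genes were tested and 0 had an unadjusted p under 0.05. The pancreas list held 1 of 3, Cela2a at 3.29 (limma adjusted p = 0.442), with log2 signals of -2.19, 1.5 and 0.25 in L1-Tg replicates 1, 2 and 3 and -2.97, -3.92 and -3.43 in WT replicates 1, 2 and 3.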
